A study of Mus musculus with 6 samples.

Results

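The microRNA precursor transcripts on a mouse whole-transcript expression array are described here, in ovarian cells that received a synthetic copy of miR-15a-3p or a negative control mimic. A transcript cluster, the unit in which this array reports a gene, was a member when the annotation of its probe sets gave exactly 1 gene symbol and that symbol was a microRNA gene (Mir followed by a digit, or Mirlet7). The rule used names and no measured value. Of 35556 clusters, 350 were members, and they carried 322 different symbols. A further 14 clusters named a microRNA together with another gene, such as Mir21 with Tmem49, and were left out. Their log2 fold changes lay between -0.23 and 0.20. Of the 14, 0 passed the limma test (5.58% of all clusters did), and 4 had an unadjusted p under 0.05 (20.3% of all clusters did).

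The cells were B/CMBA.Ov, a line from the ovary of BALB/c mice. Both groups received a small RNA at 20 nM by lipid transfection, and total RNA was taken 48 h later. The miR-15a-3p group and the control group each had 3 arrays. Separate cultures are not stated for the arrays of a group. The p-values therefore cover the spread among the 6 arrays, possibly technical, and precision is limited by their number.

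MicroRNA genes are transcribed as long primary transcripts, from which Drosha cuts a hairpin, the precursor, and Dicer then cuts a short duplex from the hairpin. Each arm of the hairpin can give a mature microRNA, named 5p or 3p, which guides Argonaute proteins to messenger RNAs, mainly through the seed at bases 2 to 8. A primary transcript often holds several hairpins, and many hairpins lie in introns of host genes. The miR-15/16 family, which is known for restraining the cell cycle and for targeting Bcl2, shares its 5p seed. The mimic used here copies the other arm of Mir15a. The array measures RNA that covers the hairpin region and does not report mature microRNA as such.

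The mature sequences of the miR-15/16 family are shown because they separate the arm that was transfected from the arm that defines the family. They are RefSeq sequences of assembly GRCm38.p6, written 5′ to 3′ with the seed in capitals.
mmu-miR-15a-3p: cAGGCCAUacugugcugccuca
mmu-miR-15a-5p: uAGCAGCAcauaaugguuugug
mmu-miR-15b-5p: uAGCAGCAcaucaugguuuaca
mmu-miR-16-5p: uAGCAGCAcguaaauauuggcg
mmu-miR-195a-5p: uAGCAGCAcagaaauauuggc
mmu-miR-497a-5p: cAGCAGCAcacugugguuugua
mmu-miR-322-5p: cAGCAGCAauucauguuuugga
mmu-miR-503-5p: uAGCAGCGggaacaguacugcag
mmu-miR-15b-3p: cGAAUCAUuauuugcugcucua
mmu-miR-16-1-3p: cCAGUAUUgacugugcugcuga
The seed AGCAGCA was found in the 5p arm of 7 measured precursors (Mir15a, Mir15b, Mir16-1, Mir16-2, Mir195a, Mir322 and Mir497), and miR-503-5p differs from it in the last seed base. The miR-15a-3p seed AGGCCAU was found in 1 mature microRNA of the members, miR-15a-3p itself, of 504 with a RefSeq sequence. The miR-15a-3p arm lies at chr14:61632038-61632059 on the minus strand, and the miR-15a-5p arm at chr14:61632075-61632096 on the same strand. Mir16-1 is its neighbour, with miR-16-5p at chr14:61631936-61631957. Both hairpins lie within the long noncoding transcript Dleu2. Mir15b and Mir16-2 lie together on chromosome 3 in the gene Smc4, Mir195a and Mir497 together on chromosome 11, and Mir322 and Mir503 together on the X chromosome.

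Of the 350 precursor clusters, 3 rose in the mimic-treated cells and 0 fell at an adjusted p under 0.05 (limma, Benjamini-Hochberg over all 35556 clusters). The 3 were Mir15a, Mir677 and Mir27a. Members therefore passed in 0.857% of cases, against 5.58% of all clusters (3.03% higher and 2.55% lower). Under median centring of the arrays the calls among all clusters were 669 higher and 947 lower, against 1078 and 907 as deposited, while the member calls were the same 3. At an unadjusted p under 0.05, 24 members were higher and 4 lower, 8% of them, against 20.3% of all clusters. All 3 values of the mimic group lay above all 3 of the control group in 33 members (9.43%, against 15.4% of all clusters) and below them in 7 (2%, against 11.1%).

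The precursors gave dim readings. Their median log2 value was 5.22, against 6.99 for all clusters, and 76 of 350 lay at or above the latter. Among these 76, 3 passed (3.95%), against 9.18% of all clusters in that range. Among the other 274, 0 passed, against 1.99%. No detection calls came with the data, so readings at background could not be set apart, and 347 of the 350 members were read by a single probe set.

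The changes were small. The median log2 fold change of the members was 0.02, against 0.01 for all clusters, and the members ranged from -0.33 (Mir222) to 0.67 (Mir15a). A log2 fold change of at least 0.25 in size was seen in 28 of the 350 members (8%), against 17.6% of all clusters. It reached 0.5 in 3 members, Mir15a, Mir350 and Mir29c. Across member clusters, pairs of arrays within a group had r between 0.992 and 0.996. Pairs from opposite groups had r between 0.988 and 0.996, a range that overlaps the first. Over all clusters the ranges did not overlap, 0.9931 to 0.9957 within a group and 0.9892 to 0.9926 between groups.

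**Figure D1:**
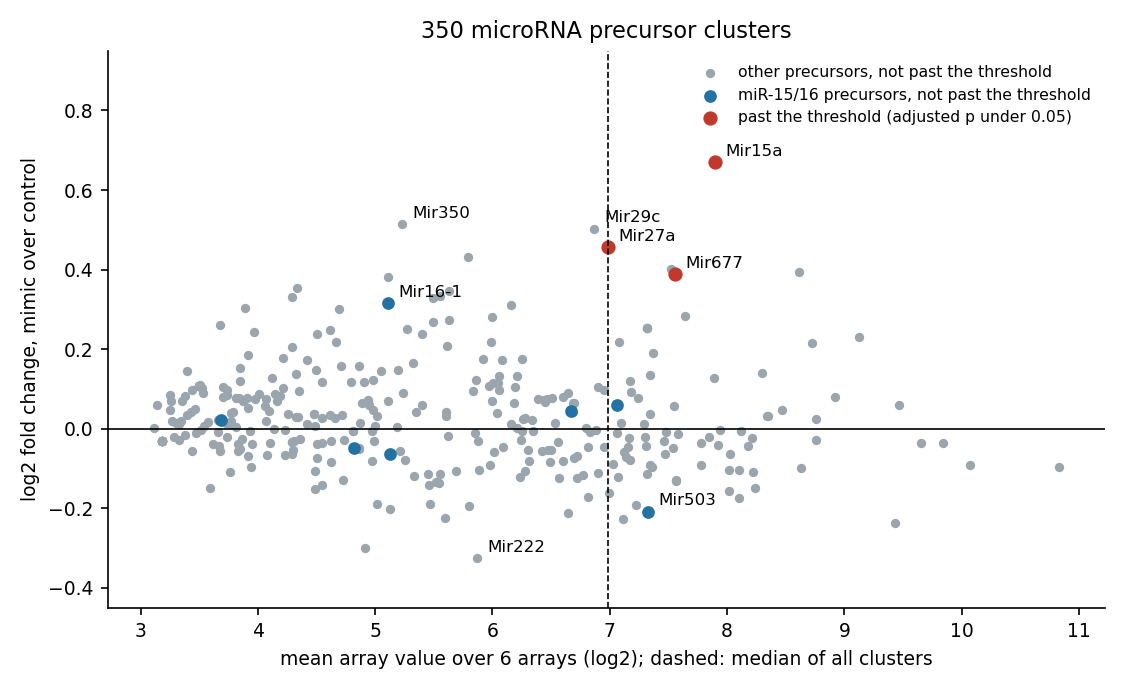
Log2 fold change (mimic over control) of the 350 microRNA precursor clusters against their mean log2 array value over 6 arrays. Each point is a cluster, and the dashed line is the median of all clusters, 6.99. The 3 red points (Mir15a, Mir677, Mir27a) passed the test and lie at or right of that line. Blue points are the other miR-15/16 precursors.

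Mir15a rose the most of the 350 members. Its log2 values were 8.32, 8.19 and 8.17 in the mimic-treated arrays and 7.30, 7.76 and 7.62 in the control arrays. Every mimic array lay above every control array, and the control arrays were spread more widely. The log2 fold change was 0.67 ± 0.12 (SE, n = 3 per group, limma adjusted p = 0.0296), a 1.59-fold difference. In the authors' deposited table the Mir15a probe set had a ratio of 1.55 with an unadjusted p of 0.0218. The transfected mimic has the letters of the 3′ arm of this precursor, and no probe sequence was used here, so signal from the mimic and signal from the cells' own transcript cannot be told apart.

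Mir16-1, cut from the same primary transcript as Mir15a, did not pass. It read 5.33, 4.98 and 5.49 in the mimic arrays and 4.78, 5.08 and 5.00 in the control arrays. The groups overlapped, because mimic replicate 2 lay below a pair of control arrays. The log2 fold change was 0.32 ± 0.14 (SE, n = 3 per group, limma adjusted p = 0.290). The difference between the Mir15a and Mir16-1 readings of an array averaged 2.96 ± 0.27 among mimic arrays and 2.61 ± 0.08 among control arrays (SD, n = 3). It was larger in every mimic array than in every control array, although mimic replicate 3 (2.681) and control replicate 2 (2.679) nearly met. The mean gap was 0.35, with an exact two-sided permutation p of 0.1 (0.15 adjusted over the 3 such pairs compared). That is the smallest p that 3 against 3 arrays allow, so this design could not pass 0.05, and the pairs were picked because Mir15a and Mir27a had passed. Whether Mir15a and Mir16-1 changed unequally was therefore not decided.

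The host transcript of both hairpins, Dleu2, read 3.55, 3.68 and 3.39 in the mimic arrays and 3.58, 3.37 and 3.44 in the control arrays. The values of the groups were mixed, and the log2 fold change was 0.08 ± 0.10 (SE; adjusted p by limma = 0.745). These readings lie near the bottom of the array's range, which starts at 2.73.

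For 5 of the other 6 precursors of the family, the groups overlapped. Mir15b, the paralogue of Mir15a, read 3.82, 3.58 and 3.69 with the mimic and 3.64, 3.77 and 3.62 with the control. Mir16-2, which yields the same miR-16-5p as Mir16-1, read 5.02, 5.13 and 5.14 with the mimic and 5.16, 5.35 and 4.98 with the control. Neither showed a shift between groups: their log2 fold changes were 0.02 ± 0.08 and -0.06 ± 0.10 (SE), with limma adjusted p = 0.919 and 0.806. The sign for Mir15b turned under quantile normalization and under median centring. Their host gene Smc4, a condensin subunit, had a log2 fold change of -0.10 ± 0.05 (SE; adjusted p by limma = 0.380).

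Mir195a read 7.21, 7.14 and 6.93 with the mimic and 7.27, 6.88 and 6.96 with the control, and its neighbour Mir497 read 6.95, 6.75 and 6.37 against 6.71, 6.59 and 6.65. The groups overlapped for both, with log2 fold changes of 0.06 ± 0.13 and 0.04 ± 0.14 (SE; adjusted p by limma = 0.856 and 0.911). Mir322, the mouse counterpart of human miR-424, read 4.88, 4.69 and 4.81 with the mimic and 4.70, 4.96 and 4.87 with the control. Its groups overlapped as well (log2 fold change -0.05 ± 0.09, SE; adjusted p by limma = 0.830).

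Mir503 was the member of the family with the lowest log2 fold change. It read 7.33, 7.34 and 7.01 with the mimic and 7.37, 7.45 and 7.47 with the control. Each mimic array lay below each control array, with mimic replicate 3 the furthest. The log2 fold change was -0.21 ± 0.10 (SE, n = 3 per group, limma adjusted p = 0.313), so the difference did not pass. The authors' deposited table gave a ratio of 0.773 for it, the lowest of the 350 member probe sets there, with an unadjusted p of 0.0921.

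**Figure D2:**
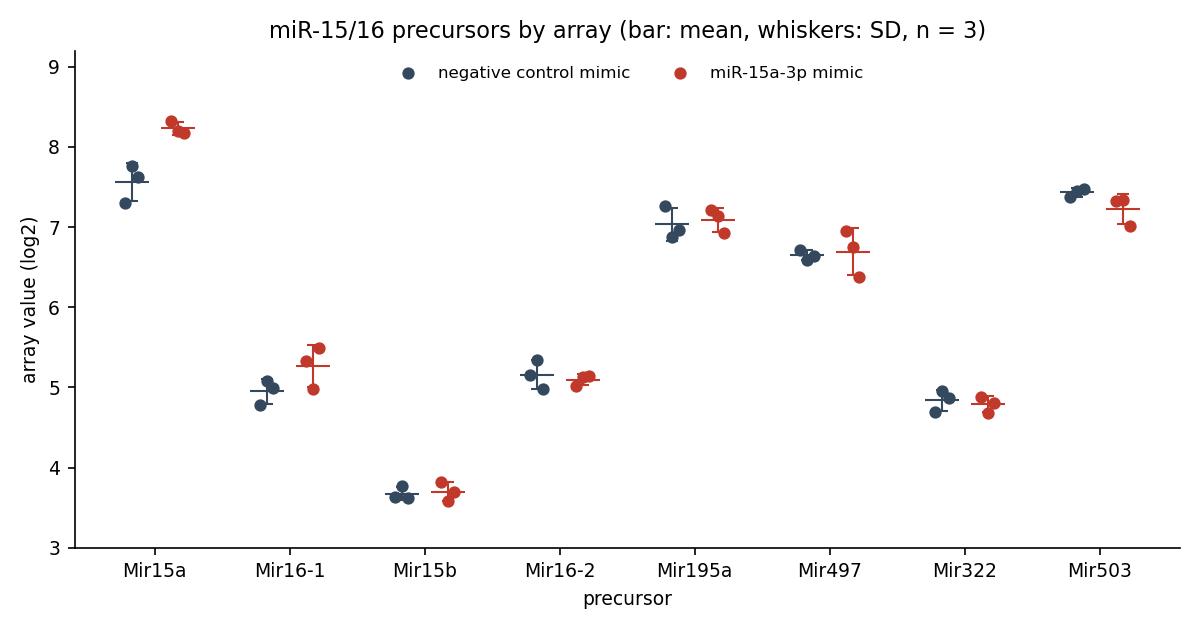
Log2 array values of the 8 miR-15/16 precursors, 3 negative control arrays (dark) and 3 miR-15a-3p mimic arrays (red) each. Points are arrays, the horizontal bar is the mean and the whiskers the SD. Mir15a stands higher in the mimic arrays (8.17 to 8.32) than in the control arrays (7.30 to 7.76), Mir503 lower, and the others overlap.

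Set against the rest, the 8 family members had a median log2 fold change of 0.03 and the other 342 members one of 0.02. In the family 1 of 8 passed, and among the others 2 of 342 passed, against 5.58% of all clusters. The others had log2 fold changes from -0.33 to 0.51. Without Mir15a, 0 of the 7 remaining family members passed in limma, and 0 had an unadjusted p under 0.05, against 20.3% of all clusters. The 7 precursors with the seed AGCAGCA had a median of 0.04.

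Mir677 was the precursor with the lowest p-value. It read 7.75, 7.70 and 7.80 in the mimic arrays and 7.32, 7.37 and 7.40 in the control arrays. The arrays within each group lay close together and the groups were clearly apart. The log2 fold change was 0.39 ± 0.06 (SE, n = 3 per group, limma adjusted p = 0.0172). Mir677 lies within Atp5b, which encodes the beta subunit of the mitochondrial ATP synthase. Atp5b itself had a log2 fold change of 0.02 ± 0.06 (SE; adjusted p by limma = 0.919), with log2 values of 12.82 to 12.90 with the mimic and 12.83 to 12.86 with the control. The authors' deposited table gave Mir677 a ratio of 1.34 with an unadjusted p of 0.00532.

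Mir27a read 7.34, 7.11 and 7.20 with the mimic and 6.87, 6.63 and 6.78 with the control. The groups did not overlap, and the log2 fold change was 0.46 ± 0.09 (SE, n = 3 per group, limma adjusted p = 0.0391). miR-27a is known for repressing adipocyte differentiation. In the authors' deposited table its ratio was 1.46 with an unadjusted p of 0.0379. Mir27a, Mir23a and Mir24-2 are hairpins of 1 primary transcript, but its neighbours read otherwise. Mir23a had a log2 fold change of 0.08 ± 0.15 and Mir24-2 of 0.002 ± 0.13 (SE; adjusted p by limma = 0.836 and 0.996). The reading of Mir27a less that of Mir24-2 averaged 0.42 ± 0.19 among mimic arrays and -0.04 ± 0.11 among control arrays (SD, n = 3), higher in every mimic array (exact two-sided permutation p = 0.1, adjusted 0.15). Against Mir23a the same difference was -0.06 ± 0.21 and -0.44 ± 0.15 (exact two-sided permutation p = 0.2, adjusted 0.2). As for Mir15a, 3 against 3 arrays could not give a p under 0.1, so these values are a description.

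The mature forms of these precursors are shown with Mir27b, the paralogue that shares the seed of Mir27a.
mmu-miR-27a-3p: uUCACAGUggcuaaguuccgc
mmu-miR-27b-3p: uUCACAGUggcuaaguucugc
mmu-miR-677-5p: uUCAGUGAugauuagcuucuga
mmu-miR-677-3p: gAAGCCAGaugccguuccugagaagg
Mir27b, on chromosome 13 with Mir23b and Mir24-1, had a log2 fold change of 0.15 ± 0.07 (SE; adjusted p by limma = 0.287), and its groups overlapped. Its neighbours Mir23b and Mir24-1 had log2 fold changes of -0.01 and 0.06. None of the seeds printed for Mir27a and Mir677 is that of miR-15a-3p. The miR-27a-3p arm lies at chr8:84208727-84208747 on the plus strand and miR-677-5p at chr10:128085291-128085312 on the plus strand.

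The calls depended on single arrays, and Mir27a passed with all 6 arrays but not when any 1 was left out. Without mimic replicate 3 or without control replicate 3, 0 members passed, and the calls among all clusters dropped to 506 (1.42%) and 344 (0.967%). Without mimic replicate 1 or 2, Mir677 was the single member that passed, with 2.87% and 2.12% of all clusters called. Without control replicate 1 it was Mir15a (2.78% of all clusters), and without control replicate 2 they were Mir15a, Mir677 and Mir374b (3.33%). In these repeats the log2 fold change of Mir15a lay between 0.54 and 0.77, that of Mir677 between 0.37 and 0.41 and that of Mir27a between 0.39 and 0.51.

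Several precursors missed the threshold with separated groups. On the higher side, Mir683-1 had a log2 fold change of 0.25 (limma adjusted p = 0.0612), Mir680-2 of 0.23 (0.0786), Mir302b of 0.26 (0.0934) and Mir186 of 0.33 (0.0954). Mir683-1 is represented by several near-identical copies: 3 of its clusters hold the same values and so count as 1 reading, while 2 others share a second reading with a log2 fold change of 0.04. Mir302b belongs to a cluster known from embryonic stem cells, and its readings of 3.73 to 3.84 with the mimic and 3.49 to 3.65 with the control lay near the bottom of the range.

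On the lower side, Mir222 came closest to the threshold. It read 5.79, 5.66 and 5.68 with the mimic and 5.95, 6.17 and 5.99 with the control. All mimic arrays lay below all control arrays, and the log2 fold change was -0.33 ± 0.08 (SE, n = 3 per group, limma adjusted p = 0.0699). Mir221, which lies beside it and shares its seed, had a log2 fold change of -0.04 ± 0.10 (SE; adjusted p by limma = 0.871), with overlapping groups. Both are known for targeting the cell cycle inhibitor p27. Mir542, Mir26a-1 and Mir351 followed with log2 fold changes of -0.19, -0.20 and -0.12 (limma adjusted p = 0.128, 0.172 and 0.293), each with separated groups.

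The brightest precursor readings gave no calls in the main fit, against 9.18% of all clusters with a mean at or above the median. So few precursors cannot be set apart from that share. Mir598, the brightest, read 10.68 to 10.91 with the mimic and 10.75 to 10.99 with the control. Mir207, Mir346, Mir383, Mir667, Mir692-1, Mir680-2 and Mir22 followed, with mean log2 values from 10.07 down to 8.92. Their log2 fold changes lay between -0.24 (Mir692-1) and 0.23 (Mir680-2). Mir680-2 did pass in alternative fits, under both filters on dim clusters, with a trend in the prior variance and with 1 cluster per gene. The annotation of the Mir207 probe set also names Dnaja1 and that of Mir22 its host transcript, so these readings may include RNA of those genes. Such double annotation was found for 15 members.

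Hairpins that lie close together are usually cut from 1 transcript, so their readings could move together. Precursor clusters less than 10 kb apart were grouped, with strand not used, which gave 53 loci with 165 clusters. In 19 loci every log2 fold change was above 0, in 6 every one was below 0, and in 28 they were mixed. In 0 loci did more than 1 precursor pass the test. Only 0.857% of members passed at all, against 5.58% of all clusters, so this 0 says little about neighbours. In 0 loci did all precursors lie above the control without overlap. Taken singly, 9.43% of members and 15.4% of all clusters did so, and most loci are small. Whether neighbours moved together was not tested.

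The locus on the X chromosome that holds Mir503 and Mir322 had 7 measured precursors. Mir503, Mir542 and Mir351 each lay below the control in all arrays, and Mir450b lay above it, against 11.1% of all clusters below and 15.4% above. Their log2 fold changes ranged from -0.21 to 0.09 over the locus, and none of the 7 passed.

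In the Mir17 locus, known as the oncogenic miR-17-92 cluster and a target of Myc, Mir17 and Mir18 had log2 fold changes of 0.25 and 0.30. Mir20a and Mir19b-1 had 0.08 and 0.07, Mir19a -0.02 and Mir92-1 -0.12. The signs were mixed within the locus. The host Mir17hg, which the naming rule also admits although it is a host transcript, had 0.21 ± 0.09 (SE; adjusted p by limma = 0.247). Over the 14 measured precursors of this cluster and its paralogues, the median was 0.08, 0 passed in limma, 2 had an unadjusted p under 0.05 and 3 lay above the control without overlap (21.4%, against 15.4% of all clusters).

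The miR-29 family, known for repressing collagen messages, had the highest median of the families listed, 0.37 over 4 precursors, and 0 of the 4 passed in limma (against 5.58% of all clusters), with 2 at an unadjusted p under 0.05 (against 20.3%). Mir29c read 6.998, 7.13 and 7.22 with the mimic and 6.15, 7.05 and 6.64 with the control. The control arrays spanned most of a log2 unit and overlapped the mimic arrays (log2 fold change 0.50 ± 0.21, SE; adjusted p by limma = 0.2503). Mir29b-2 beside it had 0.38 ± 0.16 and Mir29a 0.35 ± 0.11 (SE; adjusted p by limma = 0.235 and 0.128), and of the 4 only Mir29a had separated groups (above the control, as in 15.4% of all clusters). Mir29b-1 had -0.03. The probe sets of Mir29b-2 and Mir29c are also annotated to the transcript A330023F24Rik.

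**Figure D3:**
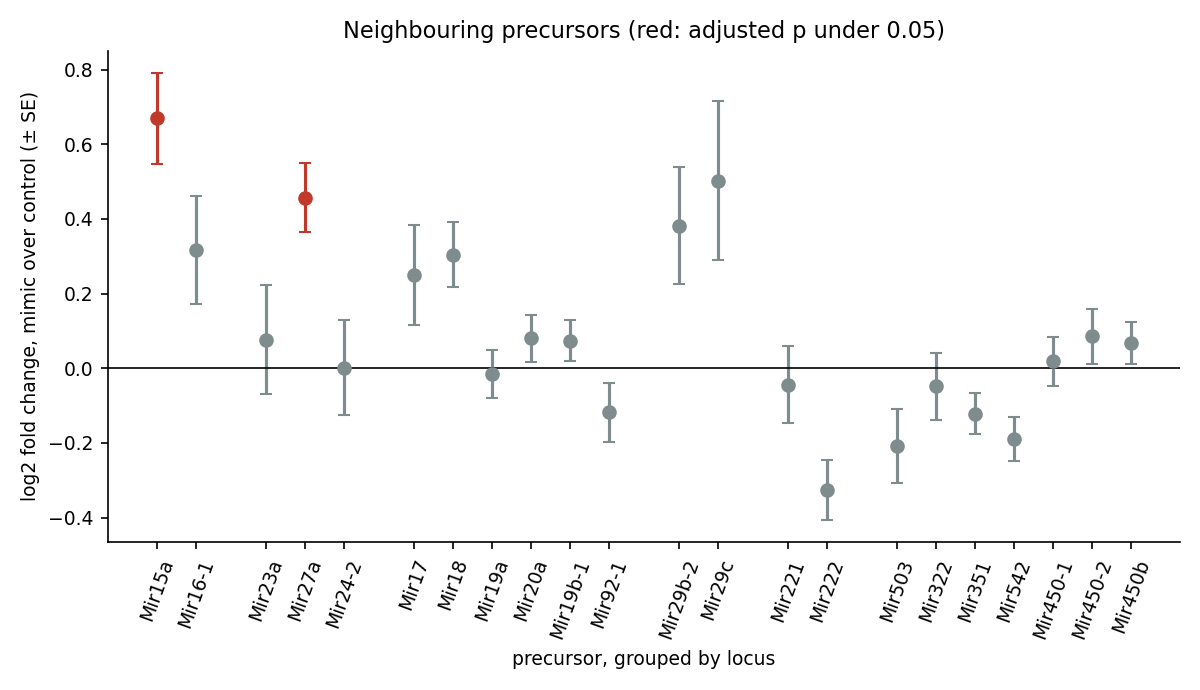
Log2 fold change (mimic over control) with its SE for precursors of 6 loci, each locus set apart by a gap. Red points passed the test (Mir15a and Mir27a), and grey points did not. Neighbours of a called precursor stand lower than it, and in the Mir17 locus values lie on both sides of 0.

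Other families showed small values. The 12 let-7 and miR-98 precursors, 11 of them matched to a RefSeq mature sequence with the seed GAGGUAG, had a median of 0.02 and a range from -0.05 to 0.17. Their groups overlapped in all 12, while 26.5% of all clusters had separated groups in either direction. The 5 precursors of the miR-200 family, known for keeping epithelial character, ranged from -0.12 to 0.12. The 5 of the miR-34 family, known as p53 targets, ranged from -0.06 to 0.20, and the 6 of the miR-30 family from -0.22 to 0.22. In each of these families 0 precursors passed in limma, against 5.58% of all clusters. With 5 to 12 precursors each, 0 calls do not set these families apart from that share. At an unadjusted p under 0.05, as in 20.3% of all clusters, there was 1 in the miR-34 family (Mir34c) and 1 in the miR-30 family (Mir30b). Both were higher, and the other families of this paragraph had 0.

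Lists of precursors known from other tissues gave values of similar size. The 8 muscle precursors had a median log2 fold change of 0.06, the 12 neuronal ones -0.06, the 6 of blood cells -0.02 and the 5 of embryonic stem cells 0.05. In each of these 4 lists 0 passed in limma, against 5.58% of all clusters. At an unadjusted p under 0.05 there was 1 in muscle (Mir499), 1 in embryonic stem cells (Mir302b) and 0 in the others, against 20.3% of all clusters. The 8 precursors of a fibroblast and mesenchyme list had a median of 0.08 and spread more widely, from -0.33 (Mir222) to 0.39 (Mir31). Of these 8, 0 passed and 2 had an unadjusted p under 0.05, 1 higher and 1 lower. Lists this short cannot be set apart from these shares. Mir302b did pass in an alternative fit of 1 cluster per gene, where 11.7% of clusters were called. Mir31 and Mir222 passed in that fit too, and Mir31 also at or above the median of all clusters (17.6% called). The imprinted locus on chromosome 12, with 31 measured precursors from Mir379 to Mir410, ranged from -0.14 to 0.16, and 1 of the 31, Mir494, had separated groups (above the control, as in 15.4% of all clusters).

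Precursors inside genes could be set beside their hosts in 102 pairs with 79 host genes. The gene had to span the precursor, and either lie on the same strand or form a pair on a fixed list. For listed pairs, such as Mir431 and Mir433 with Rtl1, the strand was not checked. Some listed genes may therefore not be the transcript that holds the precursor. Each host was read in its brightest cluster, and whether that cluster lies at the precursor's locus was not checked. Among the hosts, Clcn5 and Spaca6 rose and Pank3, Copz2 and Slit2 fell. That was 6.33% of hosts, against 5.58% of all clusters and 6.53% of named genes taken, as the hosts were, with 1 cluster each. Clcn5 was called whichever array was left out. Spaca6 was lost under median centring and with any 1 array left out, Pank3 with any 1 left out, Copz2 unless the array left out was mimic replicate 1 and Slit2 unless it was control replicate 1. These 5 hosts made 10 pairs, and in 0 of them did the precursor pass. Conversely, of the pairs whose precursor passed (Mir15a in Dleu2 and Mir677 in Atp5b), 0 had a host that passed.

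Clcn5, which encodes an endosomal chloride and proton exchanger, gave the clearest case. It read 9.98, 9.86 and 9.96 with the mimic and 9.09, 9.32 and 9.31 with the control, a log2 fold change of 0.69 ± 0.08 (SE, n = 3 per group, limma adjusted p = 0.00833). All mimic arrays lay well above all control arrays. Its 5 precursors did not share this: Mir532 had a log2 fold change of 0.35 ± 0.18 and Mir501 of 0.11 ± 0.13, Mir362 of 0.01, Mir188 of -0.07 and Mir500 of -0.10, and none passed. Spaca6, with Mir125a and Mirlet7e, had 0.33 while these had -0.06 and -0.02. Pank3, Copz2 and Slit2 had -0.29, -0.35 and -0.47, and their precursors Mir103-1, Mir152 and Mir218-1 had 0.06, -0.11 and -0.11. Across the 102 pairs the log2 fold changes of precursor and host had the same sign in 53 and correlated with r = 0.118. This is a description, since pairs share arrays and hosts and a host cluster may lie away from its precursor's locus.

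**Figure D4:**
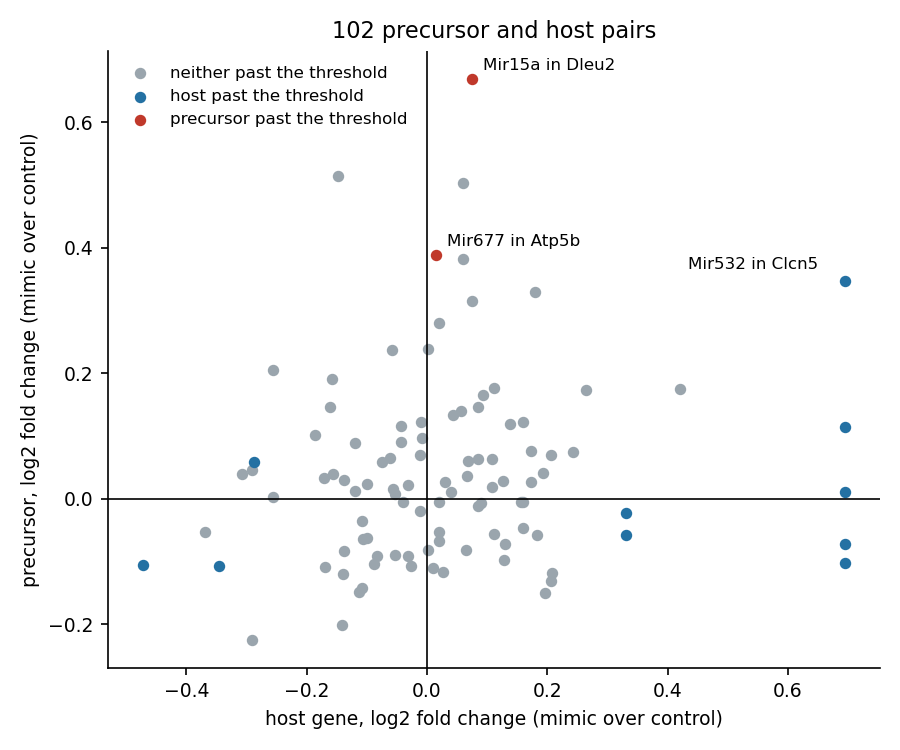
Log2 fold change (mimic over control) of 102 precursors against that of their host genes. Red marks pairs whose precursor passed the test, blue those whose host did. The red points lie near 0 on the host axis, and the 5 blue points at 0.69 are the precursors within Clcn5, from -0.10 to 0.35.

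Of the genes that make, bind or degrade microRNAs, 25 of 25 listed were measured, 1 rose and 0 fell (4%, against 5.58% of all clusters). The gene that rose was Tut4, a terminal uridylyltransferase that tails let-7 precursors, with log2 values of 10.81, 10.91 and 10.86 with the mimic and 10.51, 10.61 and 10.53 with the control. Its groups were apart, and the log2 fold change was 0.31 ± 0.06 (SE, n = 3 per group, limma adjusted p = 0.0398). The call was lost when the arrays were median centred and when any 1 array was left out. Drosha and Dicer1 had log2 fold changes of 0.13 ± 0.06 and 0.13 ± 0.07 (SE; adjusted p by limma = 0.335 and 0.359), each with separated groups. Ago2, the slicing Argonaute, had 0.19 ± 0.08 (SE; adjusted p by limma = 0.248), and 0.09 ± 0.08 in a second, dimmer cluster whose groups overlapped. Ago1 and Ago3, other Argonautes, lay lower in every mimic array, with log2 fold changes of -0.28 ± 0.09 and -0.14 ± 0.07 (SE; adjusted p by limma = 0.142 and 0.324). Over the list, mimic arrays lay above control arrays without overlap in 12 of 25 genes (48%, against 15.4% of all clusters) and below in 2 (8%, against 11.1%), a description of the list. These genes are brighter than most clusters: 22 of 25 had a mean at or above the median of all clusters, a range where 9.18% of clusters were called. The share without overlap in that range was not taken. The median over the 25 genes was 0.08.

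Base composition went with the level of the readings. Over 277 precursors with a RefSeq hairpin and a reading of their own, the share of G and C bases in the hairpin correlated with the mean log2 value with r = 0.753 and rho = 0.774. The median log2 value was 3.89 in the third with the lowest G and C share, 5.36 in the middle and 6.80 in the highest. With the log2 fold change, the correlation was -0.23, with medians of 0.05, 0.01 and -0.02 in the same order. These are descriptions across precursors, which share arrays and differ in probes, so levels of different precursors were not compared as expression. Mir27a, at 59.8% G and C, lies in the highest of these ranges and Mir677, at 47.4%, in the middle. The part of base composition in the calls was not tested.

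**Figure D5:**
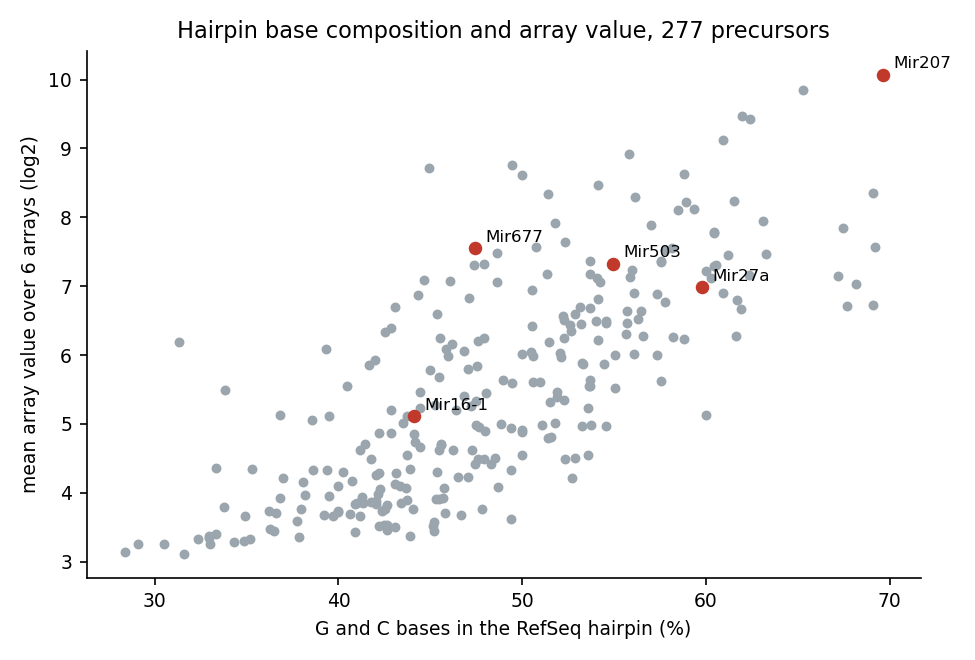
Mean log2 value over 6 arrays against the percentage of G and C bases in the RefSeq hairpin, for 277 precursors. Each point is a precursor, and 5 are named in red as landmarks. Readings rise with the G and C share (r = 0.753).

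The seed match of miR-15a-3p, AUGGCCU, was searched in the sense strand of the hairpins. It was found in 1 of 277 member hairpins (0.361%), against 0.697% of the 1005 mouse hairpins in the RefSeq table. The match was in Mir410, which had a log2 fold change of 0.07 ± 0.07 (SE; adjusted p by limma = 0.680) and overlapping groups. A match describes letters and is not a site.

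In the authors' deposited table of probe sets, 28 of the 350 member probe sets had an unadjusted p under 0.05 (8%, against 11.9% of all probe sets), 21 with a ratio above 1 (all probe sets 5.51%) and 7 below (6.44%). Ratios of member probe sets ran from 0.773 to 1.68 (Mir680-1), so 0 reached a 2-fold change. The share of all probe sets that did was not taken. The authors' deposited list of 1768 selected probe sets holds 0 microRNA symbols. With 350 member probe sets among 241419, a list of that size could hold only a few by its size alone, so the 0 does not set them apart.

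The 8 markers listed for ovarian surface epithelium and mesothelium had mean log2 values of 7.98 to 11.07, and those of granulosa cells 5.37 to 6.90, below the median of all clusters. The 4 fibroblast markers ranged from 5.35 (Lum) to 12.24 (Dcn), and the 3 muscle markers from 6.63 (Des) to 12.90 (Acta2, smooth muscle actin). The surface markers were therefore not the only bright ones. Markers of theca and steroid cells, oocytes and endothelium read between 4.71 (Ddx4) and 6.83 (Star), and the 2 of blood 5.37 and 8.22. Of the 8 surface markers, 2 rose and 4 fell, against 5.58% of all clusters called. Of the 4 fibroblast markers 1 fell (Dcn), and of the 3 oocyte markers 1 fell (Ddx4). The other marker lists had 0 calls. The part of these markers in the precursor readings was not tested. In such bulk RNA, fewer cells of a type and less RNA per cell cannot be told apart.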

How the data were processed

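Per-array log2 values of 35556 transcript clusters were used as the authors deposited them, for 3 arrays per mimic. Tools listed in the submitters' processing notes are Partek, RMA, Affymetrix Expression Console and MAS5, without version or role. For the array annotation, the build was not given in the sources consulted. The authors' deposited table of 241419 probe sets holds, per the file headers, a linear ratio, an unadjusted p-value and a score (a signed fold change). Which arrays entered it is not stated.

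Clusters were named from the probe sets whose IDs lie between a cluster ID and the next. Symbols were updated through RefSeq accessions of assembly GRCm38.p6 (347 of 350 members, with 3 kept as filed). RefSeq hairpins were found for 284 members. Repeated copies left 325 different readings.

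All clusters were fitted with limma 3.58.1 in R 4.3.3 (lmFit and eBayes, two-sided, Benjamini-Hochberg over all clusters, threshold 0.05), without filter or block. Array medians ranged from 6.94 to 7.01. The code was tested on simulated data. The named members were the miR-15/16 family, those past the threshold, the 8 brightest and the 4 of each direction closest to the threshold with separated groups. Other precursors, to spell out loci, families, hosts and small counts, were named after their values were seen. Members and lists were chosen with earlier results of these data known. Alternatives were 2 filters on dim clusters, 2 normalizations, a trend in the prior variance, 1 cluster per gene, a replicate block and leaving out each array.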

Additional observations from a re-analysis of the deposited data

How the results depend on the processing

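Mir15a, Mir27a and Mir677 were the called members as deposited, under quantile normalization and under median centring, and they passed together with others under both dim filters, the prior trend and the fit of 1 cluster per gene. The number of members called higher was 7 of 135 with a mean log2 of at least 6, 8 of 76 at or above the median, and 10 of 322 with 1 cluster per gene, where Mir222 was also called, the 1 member lower. Mir683-1 enters both filtered counts with 3 clusters of the same values, so they hold 5 and 6 different readings. Fewer clusters are adjusted over in these fits, and all-cluster shares were 11.2%, 17.6% and 11.7%. With each array left out the count was 0 to 3, against 0 lower. Deviations of same-numbered arrays from their group means correlated with r = 0.06, -0.15 and -0.0036, and those of differently numbered arrays with -0.24 to 0.25. Whether the numbers pair the arrays is not stated, and 3 arrays per group cannot decide it. With the replicate number as a block, 0 members were called, 429 of all clusters were (1.21%), and Mir15a kept its log2 fold change of 0.67 with an adjusted p of 0.0982. With an array left out Mir15a lay between 0.54 and 0.77, and its adjusted p was 0.0864, 0.0835 and 0.0893 without mimic replicate 1, 2 and 3 and 0.104 without control replicate 3.

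Processing genes called higher were 3 under both dim filters, quantile normalization, the trend and 1 cluster per gene, and 0 under the block, median centring and each left-out array. Hosts called higher were 4 at or above the median and with the trend, 1 under median centring and with each array left out, and 0 under the block. Hosts called lower were 5 with a mean of at least 6 and with the trend, 6 at or above the median, under quantile normalization and with 1 cluster per gene, 0 under the block and 0 to 3 with an array left out. These host and processing repeats were chosen after seeing the data. The causes were not tested.

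The sign of Mir15b turned to -0.015 under quantile normalization and -0.0085 under median centring. With an array left out, signs turned for Mir15b (-0.038 to 0.081), Mir16-2 (-0.15 to 0.032), Mir322 (-0.12 to 0.010), Mir195a (-0.022 to 0.18), Mir497 (-0.087 to 0.20), Mir207 (-0.18 to 0.016), Mir346 (-0.14 to 0.054), Mir383 (-0.10 to 0.040) and Mir667 (-0.018 to 0.13). In the same repeats the family median ranged from -0.03 to 0.08 and that of the other members from -0.0048 to 0.038. Under quantile normalization and median centring the other members had -0.024 and -0.016, the family -7.1e-05 and 0.0018, and all clusters -0.012 and -0.017. With a mean of at least 6 and at or above the median, the other members had -0.0075 and -0.023, and the family 0.051 and 0.059. Of the members, 89 had a mean log2 below 4. The part of dim readings in the count of calls was not tested, and the median SE was 0.081 below the median of all clusters and 0.101 at or above it.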
